A study of Mus musculus with 6 samples.

Results

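The genes of sterol and fatty acid synthesis were examined in bone marrow pre-B cells of control and Mef2c-deficient mice. The list held 35 genes: regulators (the sterol regulatory element binding proteins, SREBPs, and proteins that control them) and genes of the sterol and fatty acid branches. The branch genes encode enzymes, except for the cholesterol carrier Stard4 in the sterol branch. All 35 were picked by their place in the pathway, with earlier results of these data known. A gene was measured when a probe set on the array carried its symbol and no other. By that rule 30 of the 35 genes were measured, 5 regulators, 16 genes of the sterol branch and 9 of the fatty acid branch, out of 17372 genes with a named probe set. Each of the 30 had a single such probe set, and Sqle, Dhcr7, Nsdhl, Acat2 and Elovl5 were not analysed here. On 28 of the 30 the mean over the arrays passed the filter on dim probe sets (log2 value above 7.26, the 40th percentile), which 11271 named genes passed in all. Hmgcs1 and Lss were below it.

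SREBPs are transcription factors made as membrane proteins of the endoplasmic reticulum. When membrane sterol is low, the escort protein SCAP carries them to the Golgi, where they are cut and the freed fragment enters the nucleus. INSIG proteins hold SCAP in place when sterol is plentiful. SREBP-2, the product of Srebf2, is known mainly as the activator of cholesterol synthesis genes, and SREBP-1, the product of Srebf1, as that of fatty acid synthesis genes, with overlap between them. Lymphocytes that grow and divide draw on both branches to build membrane.

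The series compared gene expression in pre-B cells that lacked the MADS box transcription factor MEF2C with that in control pre-B cells. RNA came from fresh bone marrow cells sorted by surface markers (B220+ IgM- CD43-), and was hybridised to Affymetrix mouse whole-genome arrays. There were 3 control and 3 Mef2c-deficient samples, all from mice 9 months old. The Mef2c-deficient mice were Vav-Cre Mef2cfl/fl, in which the Vav promoter drives Cre in blood-forming cells generally, so that the deletion was not limited to B cells. Per the study's methods, controls were age-matched and could be Mef2cfl/fl, Mef2cfl/+ or Vav-Cre Mef2cfl/+, the last with 1 Mef2c allele deleted, and which of these each control array came from is not given in the sources used here. The samples are described as independent, without naming the animals. Mef2c itself is not analysed here, so the labels were not checked against the deleted gene.

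The deposited values are intensities on a linear scale and were taken to log2 here. Every level below is a log2 value of 1 probe set, and every difference is Mef2c-deficient minus control on the log2 scale. Levels of different genes were not set against each other, because probe sets differ in brightness. The base of the deposited scale is not stated. Should the values be powers of e, each log2 difference is 0.69 times as large, so that a 2-fold difference as deposited is 1.62-fold in signal. The highest deposited value, 2.14e+06, is 21.0 in log2 and 14.6 in natural log. Folds given below as deposited are the larger of these readings. An array has no read depth, and it is the number of arrays that sets how precise these values are. In bulk RNA of sorted cells, fewer cells of a type and less RNA per cell cannot be told apart.

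A single array stood apart from the rest. The third Mef2c-deficient array lay farthest from its group mean (SD over probe sets 0.79, against 0.29 to 0.58 for the other 5), and held high values for markers of cells outside the B lineage. Of the 8 measured markers of plasmacytoid dendritic cells all 8 were at least 2-fold above each other array there, and of the 8 neutrophil markers 7 were. The summed dendritic markers reached a log2 level of 19.8 in that array. They were at 13.9, 13.7 and 16.3 in the controls and at 15.3 and 17.3 in the other Mef2c-deficient arrays. The summed neutrophil markers reached 20.3 there, against 15.1 to 17.4 in the controls and 17.1 and 15.5 in the others. All 8 dendritic markers had a higher mean in Mef2c-deficient cells. At a limma unadjusted p under 0.05, 4 (50%, against 5.32% of genes) were higher, and 0 neutrophil markers were. Without the third Mef2c-deficient array 2 dendritic markers were still higher, against 7.07% of genes. Leaving it out thus did not remove all of the dendritic signal. Of the pre-B cell markers, 12 of 14 were measured and all 12 passed the filter, and their median per array was -0.37, -0.86 and -0.94 relative to the control mean in the Mef2c-deficient arrays. Differences of members and counts of calls are therefore given with and without the third Mef2c-deficient array.

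The promoters of the genes on which the results turn are shown first. Windows of 300 bases around the annotated start, from RefSeq on GRCm38.p6, were found for 24 of the 30 measured genes. They were searched on both strands for TCACNCCAC (a sterol regulatory element), CCAAT (the box bound by NF-Y, a partner of SREBP), GGGCGG (the box bound by Sp1), CACGTG (an E-box, which SREBP-1 can also bind) and a MEF2 site (CTA and TAG with 4 bases of any kind between). The 150 bases before the start are printed 5′ to 3′ on the gene's strand for 4 sterol branch genes that stood above every other array in the third Mef2c-deficient array and for 2 fatty acid branch genes that were lower in the Mef2c-deficient group. Capitals mark letters that match one of the motifs on either strand, and no match in these stretches overlaps another.
Hmgcs1, chr13:119690201-119690350, plus strand: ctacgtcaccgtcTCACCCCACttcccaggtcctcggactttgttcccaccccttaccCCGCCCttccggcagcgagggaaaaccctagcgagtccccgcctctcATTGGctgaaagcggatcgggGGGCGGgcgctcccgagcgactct
Idi1, chr13:8885456-8885605, plus strand: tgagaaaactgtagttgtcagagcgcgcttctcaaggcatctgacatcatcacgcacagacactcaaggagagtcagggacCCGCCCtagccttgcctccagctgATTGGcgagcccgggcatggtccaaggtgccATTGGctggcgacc
Msmo1, chr8:64733579-64733728, minus strand: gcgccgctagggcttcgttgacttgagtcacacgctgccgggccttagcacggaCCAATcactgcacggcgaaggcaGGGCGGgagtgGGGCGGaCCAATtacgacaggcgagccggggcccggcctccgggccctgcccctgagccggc
Ebp, chrX:8193513-8193662, minus strand: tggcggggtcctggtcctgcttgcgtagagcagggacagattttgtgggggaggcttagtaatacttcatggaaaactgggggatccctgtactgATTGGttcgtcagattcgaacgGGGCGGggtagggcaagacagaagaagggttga
Acly, chr11:100528001-100528150, minus strand: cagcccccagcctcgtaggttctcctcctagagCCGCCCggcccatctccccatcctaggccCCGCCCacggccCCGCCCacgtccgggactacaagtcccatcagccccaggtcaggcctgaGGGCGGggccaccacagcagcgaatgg
Elovl6, chr3:129532236-129532385, plus strand: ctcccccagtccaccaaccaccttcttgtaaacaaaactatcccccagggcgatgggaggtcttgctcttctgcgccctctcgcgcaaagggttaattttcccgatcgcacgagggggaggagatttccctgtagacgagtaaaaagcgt

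Each motif was counted over the windows of each branch. CCAAT lay in the window of 13 of 13 sterol branch genes with a sequence, of 3 of 6 fatty acid branch genes and of 4 of 5 regulators, against 41.1% of all 27025 genes with a window. GGGCGG lay in 12 of 13, 3 of 6 and 5 of 5, against 38.2%. The stretches above show both boxes in all 4 sterol branch genes, while that of Acly holds only GGGCGG, 4 times, and that of Elovl6 holds none of the motifs. Outside the printed stretch, the full window of Acly also holds CCAAT, while the full window of Elovl6 holds none of the motifs. TCACNCCAC was found in Hmgcs1 alone among the 24, against 1.44% of all genes, and CACGTG in 2 of 13, 0 of 6 and 2 of 5, against 8.09%. The MEF2 site was in none of the 24 windows, against 4.23% of all genes. A match describes letters in these windows and says nothing of binding in these cells.

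Among all genes tested few passed after correction, and no lipid synthesis member did. With limma and Benjamini-Hochberg adjustment, 2 of 11271 genes (0.0177%) had an adjusted p under 0.05, and 0 of the 28 members did, their adjusted p running from 0.149 to 0.939. Before adjustment, with a limit of p under 0.05, 3 of 28 members (10.7%) had lower values in Mef2c-deficient cells, Acly, Scd2 and Elovl6, against 20.9% of all genes tested, and 0 had higher ones, against 5.32%. Blocking on the replicate number made the counts 5 lower (17.9%, against 23.1% of genes) and 2 higher (7.14%, against 6.72%), and again 0 members passed the adjusted threshold (lowest adjusted p = 0.0872). At the study's thresholds (at least 2-fold with an unadjusted p under 0.05) Elovl6 was the 1 member lower, 3.57% against 14.7% of genes, and 0 were higher, against 2.64%. Should the values be powers of e, Elovl6 would be 1.96-fold lower and 0 members would pass, against 5.83% of genes. Without the third Mef2c-deficient array 8 members (28.6%, against 16% of genes) were lower by the study's thresholds and 0 higher (against 3.74%). The share of members called lower was thus below that of all genes tested over all 6 arrays, and not without the third Mef2c-deficient array.

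The median difference over the 28 members was 0.28, while that over all 11271 genes tested was -0.36. Without the third Mef2c-deficient array the 2 medians were -0.34 and -0.32. The mean difference over all 6 arrays was 0.045 for the members and -0.28 for all genes tested. The direction of calls depended on the scaling of the arrays: after quantile normalisation or cyclic loess 0 members were lower and 3 higher by the unadjusted limit, and after centring each array on its median 0 were lower and 4 higher. Over all genes the same step took 2353 lower and 600 higher genes to 1247 and 815 (quantile), 1148 and 931 (cyclic loess) or 1209 and 1581 (centring), and the median difference to -0.10, -0.041 or -0.065. The groups did not overlap for 6 of the 28 members. For Srebf1, Acly and Scd2 the highest Mef2c-deficient value lay below the lowest control (10.7%, against 27.1% of genes), and for Mvk, Fdft1 and Cyp51 the lowest lay above the highest control (10.7%, against 10.6%).

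**Figure D1:**
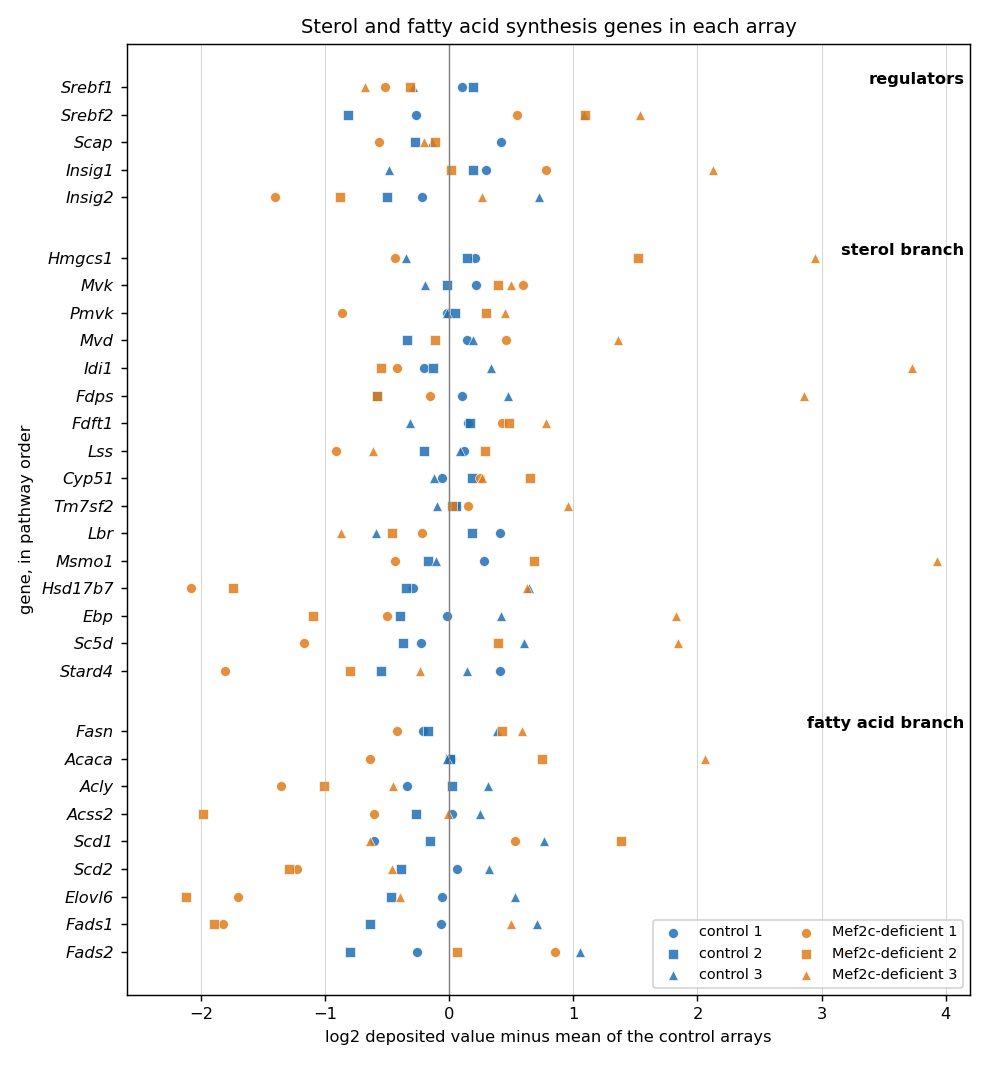
Each row is a gene and each symbol an array, plotted as its log2 deposited value with the average of the 3 controls taken off (blue, controls; orange, Mef2c-deficient; the shape gives the replicate number). Orange triangles, the third Mef2c-deficient array, lie far to the right for Idi1 (3.73), Msmo1 (3.93) and Fdps (2.86), while orange circles and squares lie to the left for Elovl6, Fads1 and Hsd17b7.

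Among the regulators, the genes of the 2 transcription factors differed in opposite directions. Srebf1 was at 11.70, 11.79 and 11.30 in controls and at 11.08, 11.28 and 10.92 in the Mef2c-deficient arrays. All Mef2c-deficient values lay below all control values, the closest being control 3 and Mef2c-deficient 2. The difference was -0.50 ± 0.28 (SE, limma adjusted p = 0.266), against a median of -0.36 over all genes tested. It was -0.42 without the third Mef2c-deficient array, but only -0.056 after quantile normalisation, -0.018 after cyclic loess and -0.21 after centring.

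Srebf2 was at 12.32, 11.77 and 13.68 in controls and at 13.13, 13.68 and 14.13 in the Mef2c-deficient arrays. The groups overlapped through control 3, which was level with Mef2c-deficient 2, and within each replicate number the Mef2c-deficient array was the higher (by 0.82, 1.91 and 0.45). The difference was 1.06 ± 0.53 (SE, unadjusted p = 0.082 and adjusted p = 0.230 by limma), 0.82 without the third Mef2c-deficient array, 1.60 without control 3, where the unadjusted limit was passed (adjusted p = 0.278), and its unadjusted p was 0.029 with the replicate block (adjusted p = 0.139). The Srebf2 difference exceeded the Srebf1 difference by 1.56, and by 1.24 without the third Mef2c-deficient array.

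The retention proteins also parted. Insig1, itself a well-known SREBP target, was at 13.50, 13.40 and 12.72 in controls and at 13.99, 13.22 and 15.33 in the Mef2c-deficient arrays. The third Mef2c-deficient array lay 1.34 above the next highest, the first just above all controls and the second among them. The difference was 0.97 ± 0.55 (SE, adjusted p = 0.266), 0.39 without that array and 1.45 without the second, where the unadjusted limit was passed (adjusted p = 0.151). Insig2, which is known to depend less on SREBP, was at 11.02, 10.74 and 11.96 in controls and at 9.83, 10.36 and 11.51 in the Mef2c-deficient arrays. Mef2c-deficient 1 and 2 lay below every control and the third lay among them. The difference was -0.68 ± 0.52 (SE, adjusted p = 0.377), and -1.15 without the third array (unadjusted p = 0.030 by limma). After quantile normalisation, cyclic loess and centring it was -0.28, -0.24 and -0.38. Scap, the escort, was at 13.02, 12.33 and 12.47 against 12.04, 12.49 and 12.40. Its groups overlapped, and its difference of -0.30 ± 0.31 (SE), -0.34 without the third array, turned to 0.18 after quantile normalisation and 0.25 after cyclic loess.

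In the sterol branch the third Mef2c-deficient array carried most of the difference. Of the 16 measured genes, 13 stood above their control mean in that array, against 9 in the second and 5 in the first. The branch median, relative to the control mean, was 0.11, -0.15 and 0.031 in the controls and -0.43, 0.16 and 0.87 in the Mef2c-deficient arrays. The median of the 16 differences was 0.38, with 11 higher and 5 lower, against a median of 0.073 over all named genes. Over the 14 genes that passed the filter it was also 0.38, against -0.36 over all genes tested. Without the third array the median of the 16 was -0.30, with 9 lower, and without both arrays numbered 3 it was -0.11. That of the 14 was -0.31 without the third array, against -0.32 over all genes tested.

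The genes that stood out in the third array lay at early and late steps of the pathway. Among the 28 members tested, 8 (28.6%) were at least 2-fold above each of the other 5 arrays there, against 4.76% of all genes tested. They were Idi1, Fdps, Msmo1, Ebp and Sc5d of the sterol branch, Insig1, and Acaca and Fads2 of the fatty acid branch, and Hmgcs1 did the same below the filter. No member met that limit in any of the other 5 arrays, where 0.071% to 2.56% of genes did. The count was 4 of 28 (against 2.86% of genes) should the table hold powers of e. This was the array with the highest dendritic and neutrophil markers, and their part in the result was not tested.

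Hmgcs1 encodes HMG-CoA synthase, which makes the precursor of mevalonate, and its promoter above holds the sterol element. It was at 6.52, 6.45 and 5.96 in controls and at 5.87, 7.83 and 9.25 in the Mef2c-deficient arrays. The second and the third lay above every control and the first below. In the fit without the filter on dim probe sets its difference of 1.34 had an adjusted p of 0.288, and without the third array the difference was 0.54.

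Idi1, the isomerase that interconverts the isoprenoid building blocks, was at 11.78, 11.85 and 12.32 in controls and at 11.56, 11.43 and 15.71 in the Mef2c-deficient arrays. The first and second Mef2c-deficient arrays lay below all controls and the third 3.40 above the highest of them. The mean difference was therefore 0.92 with an SE of 1.07, and -0.49 without the third array. Fdps, farnesyl diphosphate synthase, was at 9.84, 9.15 and 10.21 against 9.58, 9.14 and 12.59. Again the first and second arrays were within or at the edge of the control range, and the difference went from 0.71 ± 0.86 (SE) to -0.37 without the third.

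Msmo1, the C4-methyl oxidase, acts on the sterols that follow from lanosterol and begins the removal of their C4 methyl groups. It was at 9.77, 9.32 and 9.38 in controls and at 9.06, 10.17 and 13.42 in the Mef2c-deficient arrays. The first lay below all controls, the second above all and the third far above. The difference was 1.39 ± 0.99 (SE, adjusted p = 0.352), 0.12 without the third array and 2.31 without the first, where the unadjusted limit was passed (adjusted p = 0.192). Ebp, the sterol isomerase of a late step, was at 12.34, 11.95 and 12.77 against 11.85, 11.26 and 14.18. Its first and second Mef2c-deficient arrays lay below all controls. Sc5d, the desaturase that follows it, was at 10.39, 10.25 and 11.22 against 9.45, 11.01 and 12.46. The first lay below all controls and the second among them. Without the third array the Ebp difference went from 0.075 to -0.80 and the Sc5d difference from 0.35 to -0.39.

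**Figure D2:**
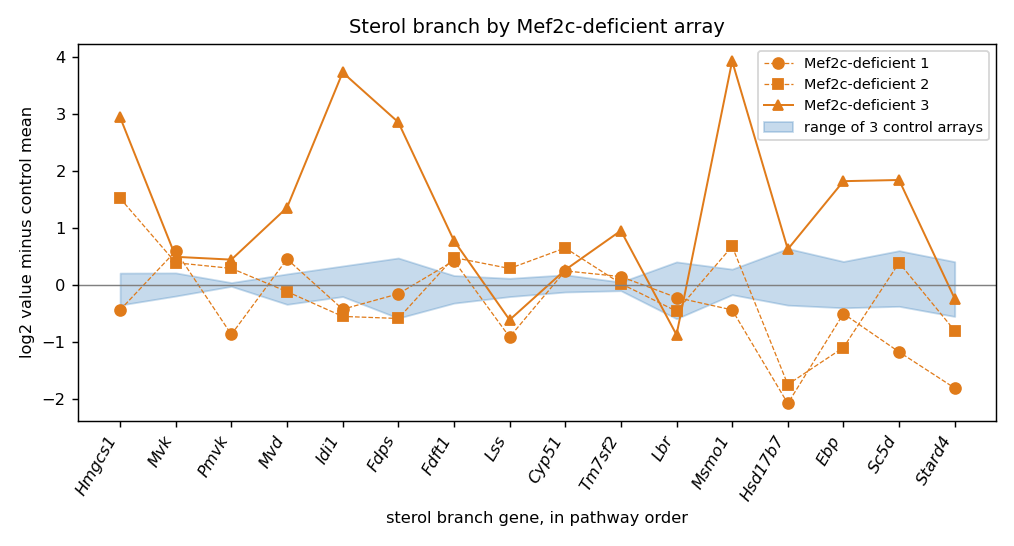
The 16 measured sterol branch genes in pathway order, each as its log2 value minus the control mean in the 3 Mef2c-deficient arrays (lines join genes for reading only), with the range of the control arrays shaded. The third array peaks at Hmgcs1 (2.95), Idi1, Fdps and Msmo1, while Mvk and Cyp51 lie above the control mean and Stard4 below it in all 3 arrays.

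For 3 sterol branch genes every Mef2c-deficient array stood above every control by small amounts, the 10.7% of members set above against 10.6% of all genes, and none passed the unadjusted limit. Mvk, mevalonate kinase, was at 11.62, 11.39 and 11.22 in controls and at 12.01, 11.80 and 11.91 in the Mef2c-deficient arrays. Fdft1, squalene synthase, was at 8.16, 8.18 and 7.70 against 8.44, 8.50 and 8.80. Cyp51, the lanosterol demethylase, was at 9.19, 9.43 and 9.12 against 9.50, 9.90 and 9.51. The gap between the groups was least for Cyp51. The differences were 0.50 ± 0.27, 0.56 ± 0.29 and 0.39 ± 0.28 (SE, limma adjusted p = 0.256, 0.237 and 0.351), and without the third array 0.49, 0.45 and 0.45. Mvk and Srebf2 were higher at an unadjusted p under 0.05 after each of the 3 other scalings.

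The other sterol branch genes varied around the controls. Mvd, which makes isopentenyl diphosphate, differed by 0.57 ± 0.42 (SE) and Tm7sf2, a sterol reductase, by 0.38 ± 0.33, both chiefly through the third array (0.17 and 0.087 without it). Pmvk, phosphomevalonate kinase, differed by -0.043 ± 0.39, a value that turned to 0.38, 0.51 and 0.25 after quantile normalisation, cyclic loess and centring, and was -0.29 without the third array. Lbr, the lamin B receptor, which is also a sterol reductase, differed by -0.52 ± 0.36, and by -0.34 without the third array. Lss, lanosterol synthase, was dim (5.58 to 6.78 over the 6 arrays) and differed by -0.41, and by -0.31 without that array.

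Hsd17b7 and Stard4 were low in the first and second Mef2c-deficient arrays, as were Idi1 and Ebp, but within the control range in the third, where Idi1 and Ebp were not. Hsd17b7, a ketoreductase of the methyl removal steps, was at 9.94, 9.87 and 10.87 in controls and at 8.15, 8.48 and 10.86 in the Mef2c-deficient arrays. The first and second lay below all controls and the third was level with the highest control. The difference was -1.06 ± 0.71 (SE, adjusted p = 0.324), and -1.91 ± 0.38 without the third array (adjusted p = 0.055 by limma). Stard4, which carries cholesterol between membranes, was at 9.57, 8.61 and 9.30 against 7.35, 8.35 and 8.92. All but the third Mef2c-deficient array lay below the lowest control. The difference was -0.95 ± 0.47 (SE, adjusted p = 0.228), and -1.30 without that array (unadjusted p = 0.018).

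In the fatty acid branch 5 of the 9 genes had a lower mean in Mef2c-deficient cells, and the 3 members lower at an unadjusted p under 0.05 were all here. The branch median, relative to the control mean, was -0.067, -0.27 and 0.38 in the controls and -0.64, -1.01 and -0.012 in the Mef2c-deficient arrays. The median of the 9 differences was -0.87, and -1.18 without the third array, against -0.36 over all genes tested (-0.32 without that array). It was -0.63 after quantile normalisation, -0.46 after cyclic loess and -0.57 after centring. It was -0.31 without the second Mef2c-deficient array and -0.33 without the probe sets that may match several transcripts. With 5 genes lower and 4 higher, the mean difference over the branch was -0.29, close to the -0.28 over all genes tested.

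Acly, ATP citrate lyase, which makes the cytosolic acetyl-CoA for both branches, was at 15.36, 15.72 and 16.02 in controls and at 14.34, 14.69 and 15.24 in the Mef2c-deficient arrays. Every Mef2c-deficient array lay below every control, the third only just. The difference was -0.94 ± 0.34 (SE, unadjusted p = 0.028 and adjusted p = 0.155 by limma), 1.92-fold lower as deposited, and -1.18 without the third array. After quantile normalisation, cyclic loess and centring it was -0.70, -0.49 and -0.65, and the unadjusted call was lost each time. Its probe set is of the kind whose probes can also match other transcripts. Acss2, which makes acetyl-CoA from acetate, was at 9.13, 8.84 and 9.35 against 8.50, 7.13 and 9.10. The third Mef2c-deficient array lay among the controls and the others below them. The difference was -0.87 ± 0.51 (SE, adjusted p = 0.278), and -1.29 without the third array.

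Scd2, a stearoyl-CoA desaturase that places the first double bond, was at 14.41, 13.96 and 14.66 in controls and at 13.11, 13.05 and 13.88 in the Mef2c-deficient arrays. The groups did not overlap, though the third Mef2c-deficient array nearly reached control 2. The difference was -0.99 ± 0.35 (SE, unadjusted p = 0.024, adjusted p = 0.149 by limma), 1.99-fold lower as deposited, and -1.26 without the third array. After quantile normalisation, cyclic loess and centring it was -0.63, -0.46 and -0.70, and the unadjusted call was lost each time. Scd1, the related desaturase, went the other way at 14.05, 14.50 and 15.42 against 15.19, 16.04 and 14.01. Its first and second Mef2c-deficient arrays were higher than their controls of the same number and the third was the lowest of all. The difference was 0.42 ± 0.58 (SE, adjusted p = 0.603), and 0.96 without the third array.

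Elovl6, the elongase that takes palmitate to stearate, showed the largest difference among the members at an unadjusted p under 0.05. It was at 11.95, 11.54 and 12.54 in controls and at 10.31, 9.89 and 11.62 in the Mef2c-deficient arrays. The first and second lay well below all controls, and the third lay just above control 2, so that the groups overlapped. The difference was -1.40 ± 0.50 (SE, 95% interval -2.58 to -0.23, unadjusted p = 0.025, adjusted p = 0.151 by limma), 2.65-fold lower as deposited. Without the third array it was -1.91 ± 0.37 (adjusted p = 0.053). After quantile normalisation, cyclic loess and centring it was -0.99, -0.92 and -1.11, without an unadjusted call. For Scd2 and Elovl6 the unadjusted call was also lost without control 1, control 3, or the first or second Mef2c-deficient array, and for Acly without control 2, control 3, or the first or second Mef2c-deficient array.

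Of the fatty acid desaturases that act on dietary polyunsaturated chains, Fads1 was at 11.63, 11.06 and 12.40 in controls and at 9.87, 9.81 and 12.20 in the Mef2c-deficient samples. Fads2 was at 9.97, 9.43 and 11.28 against 11.08, 10.29 and 13.41. Control 3 was the highest control and Mef2c-deficient 3 the highest of its group for both genes. For Fads1 the first and second Mef2c-deficient arrays lay below all controls, and for Fads2 they lay among them. The Fads1 difference was -1.07 ± 0.69 (SE, adjusted p = 0.309), and -1.86 without the third array. The Fads2 difference was 1.37 ± 0.83 (SE, adjusted p = 0.291), 0.46 without it and 2.02 without the second, where the unadjusted limit was passed (adjusted p = 0.187). With the replicate block, which takes up the shared height of the arrays numbered 3, the unadjusted p was 0.030 for Fads1 and 0.008 for Fads2 (adjusted p = 0.139 and 0.099).

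The enzymes that build the chain itself had no unadjusted call over all 6 arrays. Fasn, fatty acid synthase, differed by 0.20 ± 0.37 (SE, adjusted p = 0.696) and by 0.0031 without the third array. Acaca, acetyl-CoA carboxylase, which gives malonyl-CoA, was at 11.02, 11.01 and 10.99 in controls and at 10.37, 11.76 and 13.06 in the Mef2c-deficient arrays. The controls were nearly equal and the Mef2c-deficient arrays spread on both sides of them. The difference was 0.72 ± 0.62 (SE), 0.057 without the third array and 1.40 without the first, where the unadjusted limit was passed (adjusted p = 0.152).

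**Figure D3:**
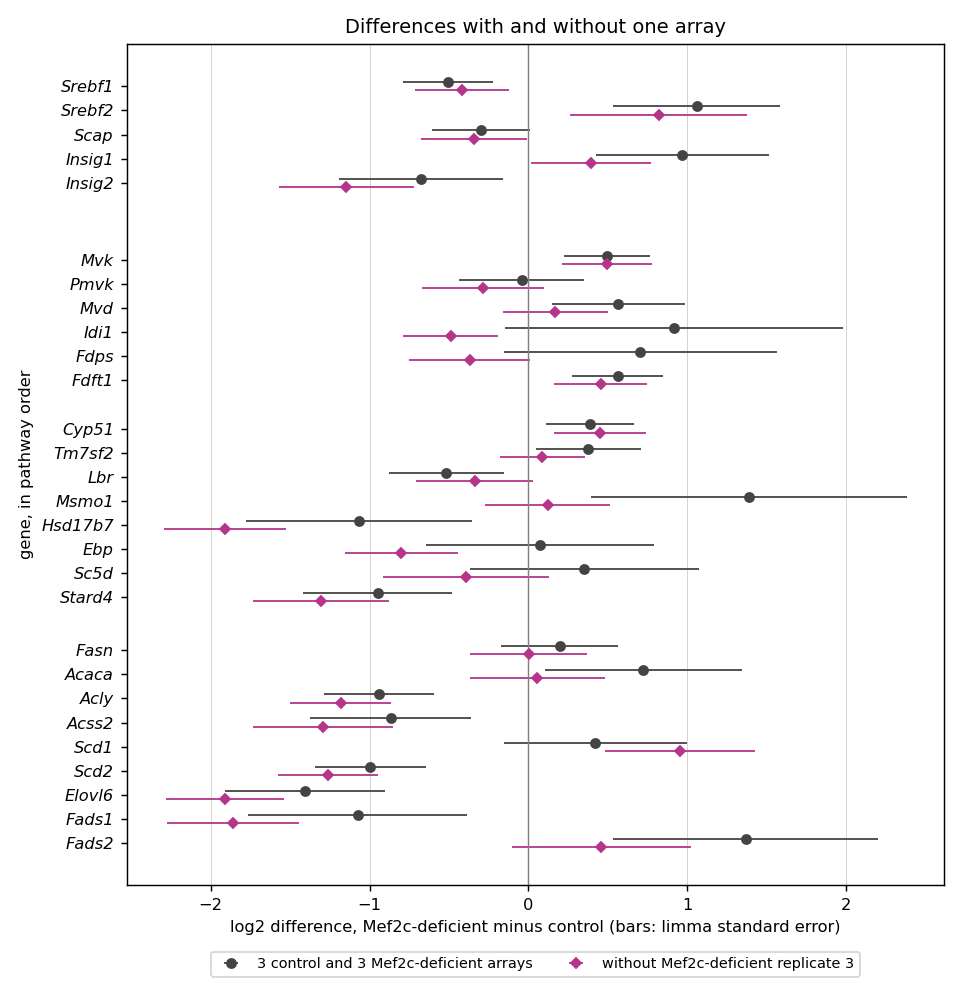
Log2 difference, Mef2c-deficient minus control, with its limma standard error, for the 28 members that passed the filter, over all 6 arrays (grey circles) and without the third Mef2c-deficient array (purple diamonds). Idi1, Fdps, Ebp and Sc5d cross 0 when that array is left out, while Acly, Scd2, Elovl6, Fads1 and Hsd17b7 move further below 0.

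Without the third Mef2c-deficient array the calls on members were all in the same direction. At an unadjusted p under 0.05, 8 of 28 members (28.6%, against 23.7% of genes) were lower, Insig2, Hsd17b7, Stard4, Acly, Acss2, Scd2, Elovl6 and Fads1, and 0 were higher, against 7.07%. By limma 0 members had an adjusted p under 0.05 (lowest 0.053), against 1.41% of genes. The groups did not overlap, with Mef2c-deficient cells lower, for 11 members (39.3%, against 37.4% of genes). Those shares were close to the shares over all genes.

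The branches were then set against each other within each array. The sterol branch median minus the fatty acid branch median was 0.18, 0.12 and -0.35 in the controls and 0.21, 1.17 and 0.88 in the Mef2c-deficient arrays. All Mef2c-deficient arrays lay above all controls, the first only just. The medians of the differences lay 1.25 apart, 0.88 without the third array and 0.91 without both arrays numbered 3. The sign was the same in all 15 alternatives in which it was computed (0.70 to 1.33). Centring and natural logs could not change it, because they shift or scale both branches alike. Nor could averaging of probe sets, since each member had 1. By the mean the branches lay closer together, at 0.26 for the sterol branch and -0.29 for the fatty acid branch. The comparison is a description, since the genes of a branch are not replicates.

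Markers of dividing cells were low in all Mef2c-deficient arrays. Of 12 such markers 11 were measured. At an unadjusted p under 0.05, all 11 were lower (against 20.9% of genes), and 9 of the 11 without the third Mef2c-deficient array (against 23.7%). Their median lay at 0.28, 0.046 and -0.17 in controls and at -1.35, -3.34 and -1.61 in the Mef2c-deficient arrays. Their summed log2 level was 18.4 to 19.1 in the controls and 16.9 to 18.3 in the Mef2c-deficient arrays. The second Mef2c-deficient array was the lowest for these markers and for the fatty acid branch median, while the third was below the first for the markers and level with the controls for that branch. The part of these markers in the result was not tested. T cell markers (7 of 8 measured) had medians of 0.59, 0.46 and 2.49 in the Mef2c-deficient arrays, macrophage markers (7 of 8) 0.21, 0.24 and 0.83, and erythroid markers (5 of 7) 0.37, -0.014 and 1.55. Plasma cell markers (5 of 6) were at -0.426, 0.118 and -0.997, and NK cell markers (3 of 4) at -1.66, -0.93 and 0.82.

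**Figure D4:**
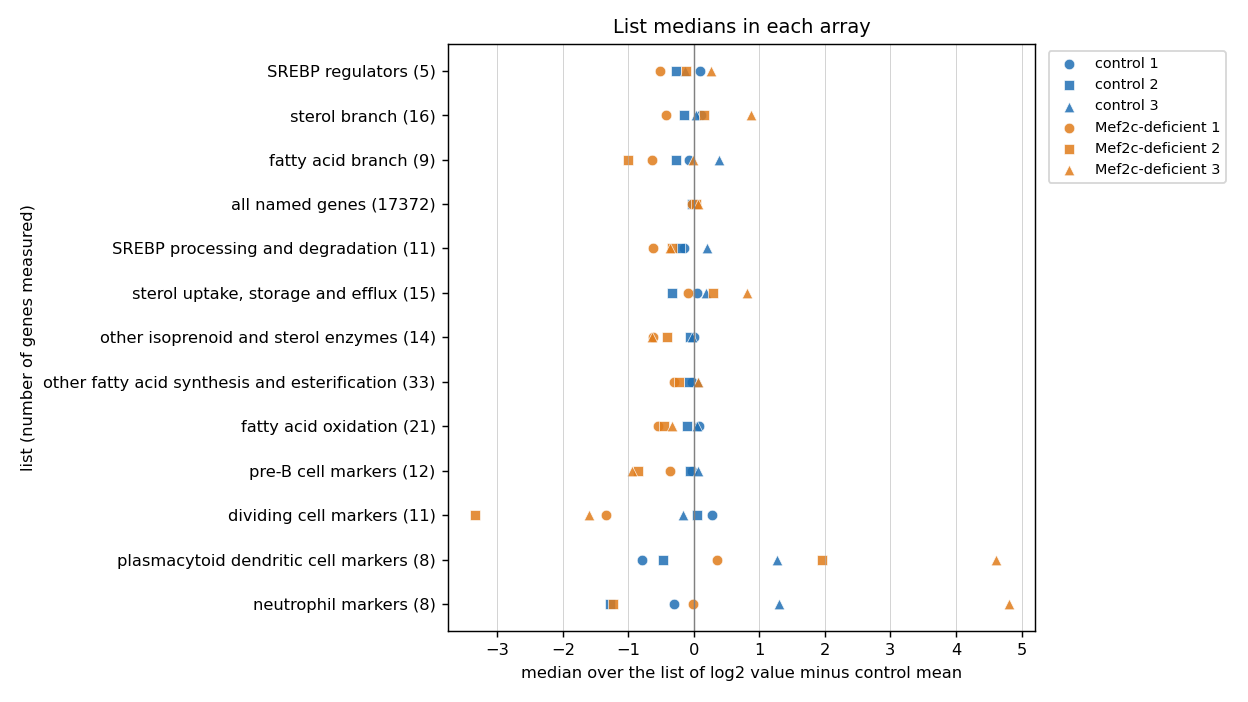
For each gene list (number measured in parentheses), the median over its genes of the log2 value minus the control mean, in each of the 6 arrays. The sterol branch median of the third Mef2c-deficient array (0.87) lies right of the other arrays, as do its dendritic cell (4.62) and neutrophil (4.81) marker medians, while dividing cell markers lie left in all 3 Mef2c-deficient arrays.

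The neighbouring lipid pathways were read in the same fit, and 0 genes of them had an adjusted p under 0.05. In SREBP processing and degradation, 11 genes were measured and 10 tested, of which 1 (10%, against 20.9% of all genes) passed the unadjusted limit as lower and 1 (10%, against 5.32%) as higher. Both of these calls were lost without the third Mef2c-deficient array. There 1 other gene was lower, against 23.7% of all genes, and 0 were higher, against 7.07%. Ufd1, a partner of the segregase that draws proteins out of the endoplasmic reticulum for degradation, differed by -1.06 (adjusted p = 0.151). Rnf139, a ubiquitin ligase of the endoplasmic reticulum, differed by 0.70 (adjusted p = 0.181), and Erlin2, which takes part in the degradation of HMG-CoA reductase, by -0.86 (adjusted p = 0.192 by limma).

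In sterol uptake, storage and efflux, 1 of 13 genes tested (7.69%, against 20.9% of all genes) was lower and 0 higher (against 5.32%). Without the third Mef2c-deficient array 0 were lower (against 23.7%) and 0 higher (against 7.07%) by the same limma limit on the unadjusted p. Osbp, which exchanges sterol between the endoplasmic reticulum and the Golgi, differed by -0.73 (adjusted p = 0.187). Lipa, the lysosomal lipase that frees cholesterol from its esters, was at 12.15, 11.40 and 11.88 in the controls and 12.17, 12.50 and 14.37 in the Mef2c-deficient arrays, which left it highest in the third Mef2c-deficient array (adjusted p = 0.222). Apoe, the lipid carrier, differed by 0.90 (adjusted p = 0.259 by limma).

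The isoprenoids made early in the sterol branch also feed protein prenylation. Of the 14 other isoprenoid and sterol enzymes, all tested, 4 (28.6%) passed the unadjusted limit as lower and 0 as higher. Fntb, a farnesyltransferase subunit, averaged 7.96 in the Mef2c-deficient arrays and 8.96 in the controls, Icmt, which methylates prenylated proteins, differed by -0.80, and Zmpste24, which trims them, by -1.01 (adjusted p = 0.135, 0.136 and 0.139 by limma). For each of them all Mef2c-deficient arrays lay below all controls. Of all genes 20.9% were lower. Without the third Mef2c-deficient array 6 of the 14 were lower and 0 higher, against 23.7% and 7.07% of all genes.

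Of 25 tested genes of other fatty acid synthesis and esterification, 5 (20%, against 20.9% of all genes) were lower and 1 (4%, against 5.32%) higher. Without the third Mef2c-deficient array 8 were lower and 3 higher, against 23.7% and 7.07% of all genes. Mid1ip1, a binding partner that activates acetyl-CoA carboxylase, was at 13.05, 13.02 and 12.74 in the controls and 12.14, 11.63 and 11.69 in the Mef2c-deficient arrays. The groups lay well apart, with a difference of -1.12 (adjusted p = 0.107 by limma). Acsl4, which activates arachidonate, differed by -1.06 (adjusted p = 0.125) and Gpam, which begins glycerolipid synthesis, by -1.39 (adjusted p = 0.127). Of 19 tested genes of fatty acid oxidation, 6 (31.6%) were lower and 0 higher, led by Acadl, an acyl-CoA dehydrogenase (-0.95, adjusted p = 0.112), Ppargc1a, a coactivator of mitochondrial genes (-1.02, adjusted p = 0.135), and Etfa, which passes on their electrons (-0.73, adjusted p = 0.175 by limma). For each of these 3 genes all Mef2c-deficient arrays lay below all controls, and 20.9% of all genes were lower by the same limit. Without the third Mef2c-deficient array 4 of the 19 were lower and 1 higher, against 23.7% and 7.07% of all genes.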

How the data were processed

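Expression was measured in 3 control and 3 Mef2c-deficient pre-B cell samples, 1 array each, grouped by the genotype label. Per the study's methods, the authors summarised the probe sets by robust multiarray averaging (RMA, also named with limma in the submitters' processing notes), which adjusts background and applies quantile normalisation. The deposited value table holds linear intensities whose medians still differ between arrays (236 to 285), so the step between RMA and the table is not given in the sources used here. Here log2 was taken with no further scaling. Of 23913 probe sets in the table, 17690 carried exactly 1 gene symbol in the platform annotation, 524 several and 5699 none. Symbols were checked against RefSeq gene names and none was changed. Per gene the probe set with the highest mean log2 value was kept, and genes above the 40th percentile of mean log2 value were tested with limma 3.58.1 (R 4.3.3) across 11271 genes with Benjamini-Hochberg adjustment. Tests were two-sided. The members and lists were chosen with earlier results of these data known. Each measured member is named, with the value in every array for the regulators, for members with an unadjusted p under 0.05 or without overlap, and for others whose description turns on single arrays (chosen after their values were seen). Of each neighbouring pathway list up to 3 genes with the smallest p are named. Markers of pre-B cells, dividing cells, plasmacytoid dendritic cells, neutrophils, macrophages, T cells, erythroid cells, plasma cells and NK cells were read as lists. The deviations of same-numbered control and Mef2c-deficient arrays correlated at 0.348, 0.226 and 0.373, against -0.309 to 0.129 for other pairs, so the replicate block was treated as a pairing taken from the data, not from the labels. The labels do not say what the numbers share. Replicates are samples described as independent, and p-values measure the spread between them. The arrays of a group correlated at 0.976 to 0.991 (controls) and 0.937 to 0.968 (Mef2c-deficient). The script was tested on simulated data with 200 changed genes. Scripts for promoters and plots used Python 3.11.15, pandas 2.3.3 and matplotlib 3.10.9. Alternatives covered filter, scaling, offset, probe set choice, log base, block, weights, variance model, test and single arrays. Leaving out both arrays numbered 3 was added after seeing the data.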

Additional observations from a re-analysis of the deposited data

How the results depend on the processing

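No lipid synthesis member reached an adjusted p under 0.05 over all arrays by limma, and the same held in every alternative except array weights, where Scd2 (adjusted p = 0.047) and Elovl6 (adjusted p = 0.035) did. The counts at an unadjusted p under 0.05 varied between alternatives. The distance between the branch medians was positive in all 15 alternatives run. Centring, natural logs and averaging of probe sets could not change its sign. Quantile normalisation gave 0 members lower, 3 higher and 0 genes called after adjustment over all genes, and turned Scap to 0.18 and Pmvk to 0.38. Cyclic loess gave 0, 3 and 0, with Scap at 0.25 and Pmvk at 0.51. Centring on the median gave 0, 4 and 0, with Pmvk at 0.25. The replicate block (paired by number) gave 5 members lower (Hsd17b7, Acly, Scd2, Elovl6, Fads1), 2 higher (Srebf2, Fads2) and 0 genes called after adjustment. Array weights gave 7 of 28 members lower and 2 higher, against 2940 and 1005 of 11271 genes. They called 1154 genes after adjustment, with Ebp at -0.33. The methods' t-test, at the study's p limit and without its fold limit, gave 2 members higher (Mvk, Fdft1) and 2 lower (Acly, Scd2). It gave 0 genes after Benjamini-Hochberg adjustment, with 1909 genes lower and 641 higher before it. Without probe sets that may match several transcripts, 1 gene was called, the fatty acid branch median was -0.33 and the branches lay 0.70 apart. With natural logs, 4 members were 2-fold highest in the third Mef2c-deficient array. Without both arrays numbered 3, 6 of 28 members were lower and 3 higher, against 2107 and 632 of 11271 genes. After adjustment 0 genes were called. The sterol branch median was then -0.11, Idi1 -0.32, Fdps -0.13, Ebp -0.59 and Sc5d -0.090. Leaving out each array in turn gave 0 to 8 of 28 members lower and 0 to 2 higher. Over 11271 genes the ranges were 1392 to 2668 lower and 239 to 797 higher, with 0 to 159 called after adjustment. The sterol branch median ran from -0.30 to 0.55 and the fatty acid branch median from -1.18 to -0.31. Ebp ran from -0.80 to 0.66, Pmvk from -0.29 to 0.37, Scd1 from -0.057 to 0.96, Idi1 from -0.49 to 1.65, Fdps from -0.37 to 1.35 and Sc5d from -0.39 to 1.12. The count of 8 lower, the 159 genes and the negative sterol median, Idi1, Fdps and Sc5d came from leaving out the third Mef2c-deficient array. The cause of these shifts was not tested. The differences of the other 23 members kept their sign in every alternative. The number of arrays limits the precision of each difference.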
